A study of Homo sapiens with 24 samples.

Results

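Expression of the alpha-arrestins and of the MLX proteins that sense glucose was followed in LUHMES aggregates exposed to rotenone. The 8 genes were TXNIP, ARRDC1, ARRDC2, ARRDC3, ARRDC4, MLX, MLXIP and MLXIPL, chosen by the RefSeq accession of their array probes, and all 8 were among the 21239 genes tested. They were taken up because TXNIP and ARRDC4 fell on day 8, so the values of these 2 genes in the comparisons that use the day 8 DMSO or 100 nM arrays are a description with no test. The 6 other members were tested throughout.

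LUHMES is an established human mesencephalic line, immortalized by a v-myc transgene under tetracycline control, and all groups were differentiated in suspension on a shaker in medium with cAMP, GDNF, N2 and tetracycline, which turns the transgene off. Rotenone, an inhibitor of mitochondrial complex I, was added on day 7 at 50 nM for 12 h, at 50 nM for 24 h or at 100 nM for 24 h, and the controls received DMSO at the amount that comes with 100 nM. Aggregates were collected at the end of exposure (day 8 in the labels) or after wash-out and 7 days without rotenone (day 15). Each of the 8 groups had 3 samples, one on each of 3 slides, and each was hybridized to a one-color Agilent array. No source used here says whether the 3 samples came from separate cultures, so the p-values measure the spread between these samples.

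Alpha-arrestins are adaptors that hold membrane cargo and NEDD4-family ubiquitin ligases together. TXNIP binds thioredoxin and, like ARRDC4, promotes the internalization of glucose transporters. Both genes are classical targets of MondoA (encoded by MLXIP) and ChREBP (encoded by MLXIPL), which pair with MLX, enter the nucleus when glucose 6-phosphate accumulates and bind paired E-box-like sequences called carbohydrate response elements.

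Values are log2 signals after normalization, and they can be set against each other between groups for a probe but not between genes. Of the spots that are no controls, 50.9% to 82.4% were well above background per array, with slide 1, which was scanned on another day and batch corrected, at 67.3% to 82.4%. Each group had the same position on every slide, so position and group cannot be told apart. The 6 neuronal markers were well above background on every array, and of 5 dopaminergic markers SLC18A2 was not well above background on most arrays. Of 4 astrocyte and 3 measured microglia markers, 1 astrocyte marker in 1 group was well above background on all 3 arrays, while both measured oligodendrocyte markers were on every array. Falls of a transcript in fewer cells and in each cell cannot be told apart in such bulk samples.

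TXNIP, the thioredoxin-interacting protein, was low in all 9 arrays of rotenone-exposed aggregates on day 8 and overlapped with the controls after wash-out. On day 8, DMSO samples had log2 signals of 12.58, 12.39 and 12.18. After 100 nM rotenone for 24 h the values were 9.62, 10.06 and 9.77. After 50 nM they were 10.02, 10.06 and 10.08 at 24 h, and 9.86, 9.70 and 9.72 at 12 h. The highest exposed sample thus lay more than 2 log2 units below the lowest control sample, and the exposed groups overlapped in part with each other.

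As log2 fold changes against DMSO, the day 8 values of TXNIP were -2.57 (SE 0.15, 5.94-fold lower) at 100 nM, -2.33 (SE 0.15, 5.04-fold lower) at 50 nM for 24 h and -2.62 (SE 0.15, 6.16-fold lower) at 50 nM for 12 h. In each of these comparisons, which share the 3 DMSO samples, TXNIP had the lowest fold change of 21239 genes. Within slides, the 100 nM value was -2.96 on slide 1, -2.34 on slide 2 and -2.41 on slide 3. The probe was well above background and not saturated on all 24 arrays.

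The promoters of TXNIP and ARRDC4 are shown because both genes are known targets of the MLX complexes and moved together on day 8. They hold the 250 bases before the outermost RefSeq start of each gene on GRCh38.p14, 5′ to 3′ on the strand of the gene, which for TXNIP is chr1:145996580-145996829 on the minus strand and for ARRDC4 chr15:97960453-97960702 on the plus strand. Capitals mark, in TXNIP, a pair of CACGTG-like motifs, 5 bases apart, with at most 2 mismatches over the 12 fixed bases, and in ARRDC4 an exact CACGTG.
TXNIP: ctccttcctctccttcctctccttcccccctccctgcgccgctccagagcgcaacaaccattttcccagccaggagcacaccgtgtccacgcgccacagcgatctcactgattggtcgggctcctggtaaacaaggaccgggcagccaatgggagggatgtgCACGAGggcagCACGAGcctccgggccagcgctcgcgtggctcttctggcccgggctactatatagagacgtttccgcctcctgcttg
ARRDC4: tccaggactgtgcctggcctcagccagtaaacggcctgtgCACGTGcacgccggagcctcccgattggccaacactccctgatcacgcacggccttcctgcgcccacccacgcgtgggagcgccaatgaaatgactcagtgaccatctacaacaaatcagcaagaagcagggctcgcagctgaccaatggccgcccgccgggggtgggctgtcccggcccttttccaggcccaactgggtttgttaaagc

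The TXNIP pair runs from base -88 to base -72 before the start. Both motifs read the same on either strand, so one search covered both, from 250 bases before to 50 after each of 35116 RefSeq starts. A pair with at most 2 mismatches was in 1.01% of these windows, one with at most 1 mismatch in 0.0683%, and CACGTG in 7.26%, where a CACGTG can be part of a pair. Of the 8 members, TXNIP was the one with a pair, and ARRDC4 (base -210) and MLX (base -50) had a CACGTG. The windows of ARRDC1, ARRDC2, ARRDC3, MLXIP and MLXIPL held neither motif.

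Genes that share these letters were spread over both directions on day 8. Leaving out TXNIP and ARRDC4, 254 genes tested had a pair with at most 2 mismatches in a window, of which 13 were higher (5.12%) and 11 lower (4.33%) at 100 nM. The shares over all 16133 genes tested that have such a window were 4.23% and 5.75%. For the 1711 genes with a CACGTG, 5.61% were higher and 5.55% lower. A match is a description of letters and not of binding.

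ARRDC4, which shares with TXNIP a role in the internalization of glucose transporters, was also low in all 9 exposed arrays on day 8. Its log2 signals in DMSO on day 8 were 7.89, 7.80 and 7.65. They were 5.42, 5.89 and 5.71 at 100 nM, 5.97, 6.14 and 6.15 at 50 nM for 24 h, and 5.58, 5.85 and 5.86 at 50 nM for 12 h. No exposed sample reached the lowest DMSO sample, and the lowest group mean was that of 100 nM, whereas for TXNIP it was that of 50 nM for 12 h. The log2 fold changes were -2.11 (SE 0.13, 4.32-fold lower), -1.69 (SE 0.13, 3.24-fold lower) and -2.02 (SE 0.13, 4.05-fold lower). They ranked 4, 11 and 3 from the lowest among all genes. The size depended on background correction, from -1.41 with an offset of 50 to -2.46 with the scanner software's processed signal at 100 nM.

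**Figure D1:**
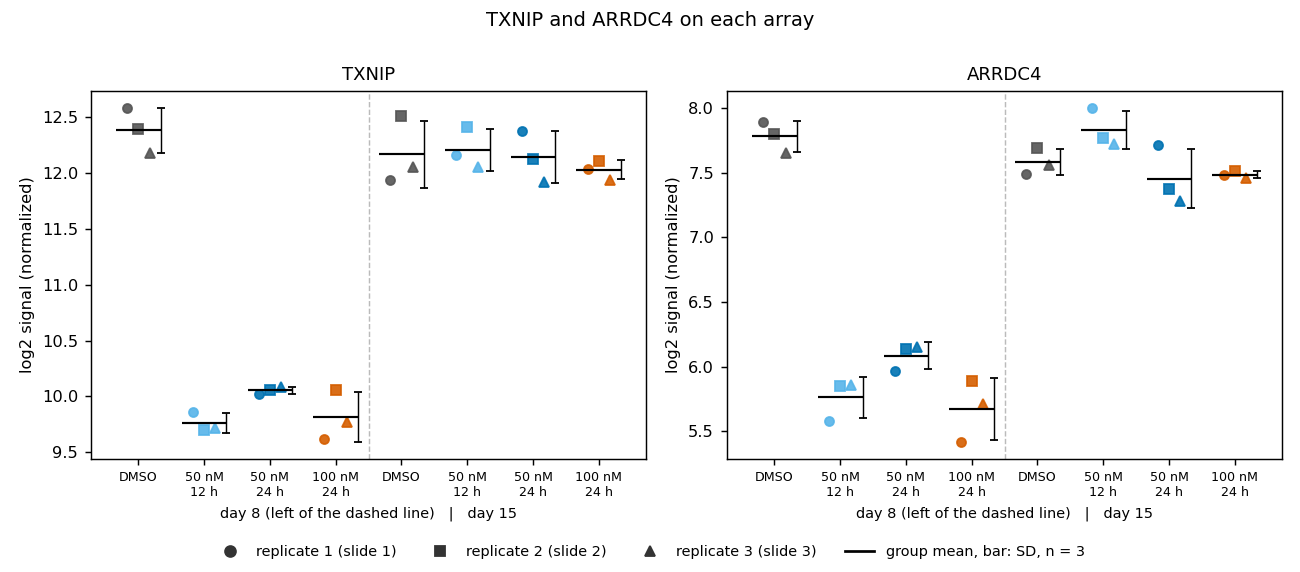
Normalized log2 signal of TXNIP (left) and ARRDC4 (right) on each array, by group on the x axis, with day 8 left of the dashed line and day 15 right of it. Markers are replicates, horizontal lines group means and vertical bars the SD (n = 3). The 9 rotenone samples of day 8 sit below all 15 other samples for both genes, TXNIP at 9.62 to 10.08 and ARRDC4 at 5.42 to 6.15.

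After wash-out, neither gene was called against DMSO of the same day. These arrays did not choose the genes, so the limma test applies. The day 15 TXNIP signals were 11.94, 12.51 and 12.05 in DMSO and 12.04, 12.11 and 11.94 after 100 nM, a log2 fold change of -0.14 (95% confidence interval -0.46 to 0.18, adjusted p = 0.86). After 50 nM they were 12.38, 12.13 and 11.92 with 24 h and 12.16, 12.41 and 12.05 with 12 h of exposure, with log2 fold changes of -0.03 and 0.04 (adjusted p = 1 for each). The groups overlapped in all 3 comparisons.

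ARRDC4 on day 15 stood at 7.49, 7.69 and 7.56 in DMSO and at 7.48, 7.51 and 7.46 after 100 nM. Its log2 fold change was -0.10 (interval -0.37 to 0.18, adjusted p = 0.9). After 50 nM for 24 h the values were 7.71, 7.37 and 7.28 and the log2 fold change -0.12 (adjusted p = 1). After 50 nM for 12 h they were 8.00, 7.77 and 7.72, all above the DMSO samples and higher on 3 of 3 slides, with a log2 fold change of 0.25 (interval -0.02 to 0.52, adjusted p = 1).

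Under limma, no gene was called on day 15, that is 0% of 21239 genes at a Benjamini-Hochberg adjusted p under 0.05, in any of the 3 comparisons. At an unadjusted p under 0.05 there were 1532 genes at 100 nM, 697 at 50 nM for 24 h and 737 at 50 nM for 12 h. Of the members, ARRDC3 was among the 1532. The scan name of day 15 DMSO replicate 1 gives 12 h and does not name DMSO, so its group rests on its label. Without it, the TXNIP values were -0.25, -0.14 and -0.07 and the ARRDC4 values -0.14, -0.17 and 0.21, none called.

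The length of exposure at 50 nM can be compared on day 8 without the DMSO and 100 nM arrays. Exposures of unlike length also differ in their start or collection time, and the day 8 DMSO samples carry no length. Length and these times cannot be told apart, here or in the comparisons with DMSO. TXNIP and ARRDC4 were low at 50 nM too when they were taken up, so their p-values here are not an independent test. TXNIP was 0.29 log2 units higher at 24 h than at 12 h (interval -0.03 to 0.61, limma adjusted p = 0.52), and the 3 values at 24 h lay above the 3 at 12 h. ARRDC4 was 0.32 higher (interval 0.05 to 0.60, limma adjusted p = 0.34), again with no overlap and in the same direction on 3 of 3 slides. Neither passed the adjustment over all genes, ARRDC4 being among the 2313 genes at an unadjusted p under 0.05 and TXNIP not, and 0.537% of genes were called in this comparison. Over 12 alternative settings the ARRDC4 difference ran from 0.17 to 0.53 and was called in 1, with the scanner software's processed signal. MLX (-0.19, unadjusted p = 0.037) and MLXIP (-0.24, unadjusted p = 0.038) were lower at 24 h and not called either (adjusted p = 0.41 for both). Between doses at 24 h, 100 nM lay 0.24 log2 units under 50 nM for TXNIP and 0.42 under for ARRDC4, given as a description. By slide the difference was -0.40, 0.00 and -0.31 for TXNIP, whose samples overlapped between doses, and -0.55, -0.25 and -0.44 for ARRDC4. In that comparison limma called 0% of genes, with 885 at an unadjusted p under 0.05, and the 6 other members were not called. The 5 cycling-cell markers moved along with these contrasts, although none was called. Their median was 0.25 for 24 h against 12 h (5 of 5 above 0), -0.35 for 100 nM against 50 nM (0 of 5 above 0), and against DMSO -0.40 at 100 nM, -0.01 at 50 nM for 24 h and -0.31 at 50 nM for 12 h. Of the 6 neuronal markers, SNAP25 was called lower at 100 nM (log2 fold change -0.30, adjusted p = 0.041), and the median of the 6 was 0.01. The part of these markers in the values of the members was not tested.

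Over all arrays, ARRDC4 was the gene with the pattern most like that of TXNIP. Both were taken up for their fall on day 8, so this rank is a description. Over the 24 arrays Pearson's r with TXNIP was 0.986, the highest among 15649 genes with a probe well above background on at least 12 arrays. Most of this comes from the gap between the 9 exposed day 8 arrays and the rest. Within the 15 other arrays r was 0.68, within the 9 exposed arrays 0.77, and between deviations from the group means 0.63. In the same order EIF5 had 0.77, 0.72 and 0.76, and ARRDC3 had 0.73, 0.85 and 0.69. Arrays also share slide and batch correction.

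**Figure D2:**
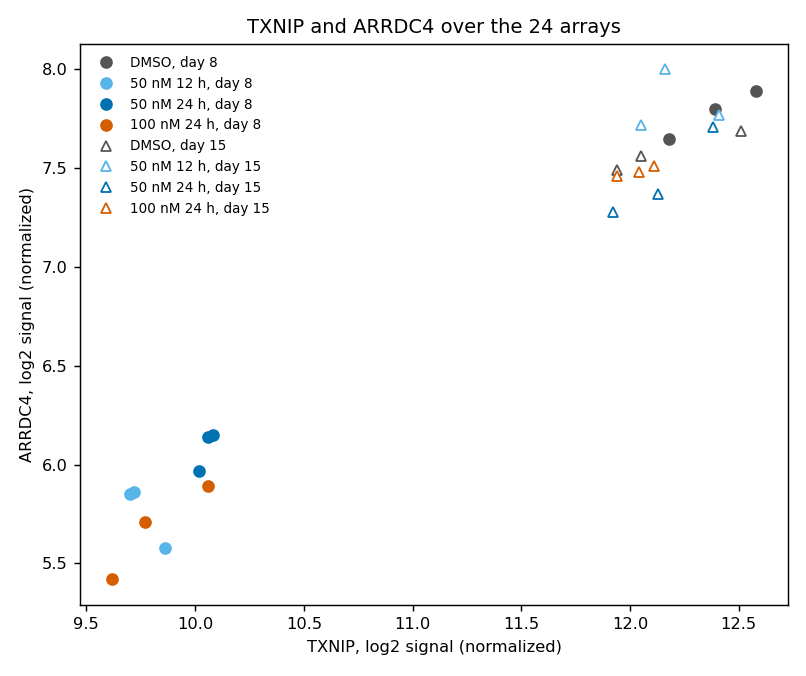
Normalized log2 signal of TXNIP (x axis) against that of ARRDC4 (y axis) on the 24 arrays, each point 1 array, with filled circles for day 8, open triangles for day 15 and colors for exposure. The 9 exposed day 8 arrays form 1 cloud at the lower left, and within each cloud arrays with more TXNIP tended to have more ARRDC4 (r = 0.77 and 0.68).

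The 7 genes that came next by r were EIF5 (0.976), GSTA4 (0.972), ITGA10 (0.969), YIPF1 (0.964), HNRNPD (0.964), PSMG3-AS1 (0.963) and LRRC8A (0.961). EIF5, a translation initiation factor that guides start codon choice, had log2 fold changes on day 8 of -1.02, -0.83 and -0.95 and, of these 7, the highest r between deviations from the group means (0.76). ITGA10, an integrin subunit that binds collagen, had -1.43, -1.33 and -1.22. The 4 genes with the lowest r were SLC2A4RG (-0.961), UBE2D4 (-0.959), CAMK2N1 (-0.959) and C11orf96 (-0.958). SLC2A4RG, a regulator of the SLC2A4 glucose transporter gene, had log2 fold changes on day 8 of 1.01, 0.88 and 0.97. All of these genes were picked for their likeness on the same arrays, so their changes are a description.

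The other alpha-arrestins did not follow TXNIP down. ARRDC1, which recruits ligases to vesicles that bud from the plasma membrane, lay between 8.49 and 9.15 on all arrays, and its day 8 log2 fold changes were 0.14, -0.01 and 0.03, the first for 100 nM, the second for 50 nM for 24 h and the last for 50 nM for 12 h. ARRDC2 lay between 4.80 and 5.77, with -0.21, -0.07 and -0.26. Neither was called in any comparison, and the lower bounds of their day 8 intervals were -0.27 for ARRDC1 and -0.56 for ARRDC2, far from the values of TXNIP and ARRDC4.

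ARRDC3, an adaptor of beta-adrenergic receptors, had the largest SE of the 5 alpha-arrestins among the members. In DMSO on day 8 its log2 signals were 7.22, 7.30 and 6.92. With 50 nM for 24 h they were 7.70, 7.57 and 7.52, all above DMSO, but the log2 fold change of 0.45 (SE 0.23) was not called (adjusted p = 0.31). On day 15 the values were 6.72, 7.21 and 7.10 in DMSO and 6.54, 7.07 and 5.87 after 100 nM, which differ by -0.52 (SE 0.23) with an unadjusted p = 0.039 and an adjusted p = 0.68. By slide the difference was -0.19, -0.14 and -1.23, and without 100 nM replicate 3 it was -0.21. The 100 nM change on day 15 less that on day 8 was -0.70 (adjusted p = 0.34), or -0.39 without the same array. Over the 24 arrays its r with TXNIP was -0.579, while that between deviations from the group means was 0.69.

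ARRDC5, a further arrestin-domain gene, was well above background on 1 of 24 arrays, and no fold is given for it in the text. It belongs to the 9 other arrestin-fold proteins below, so it counts among the 69 pathway genes tested and is drawn with that list.

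**Figure D3:**
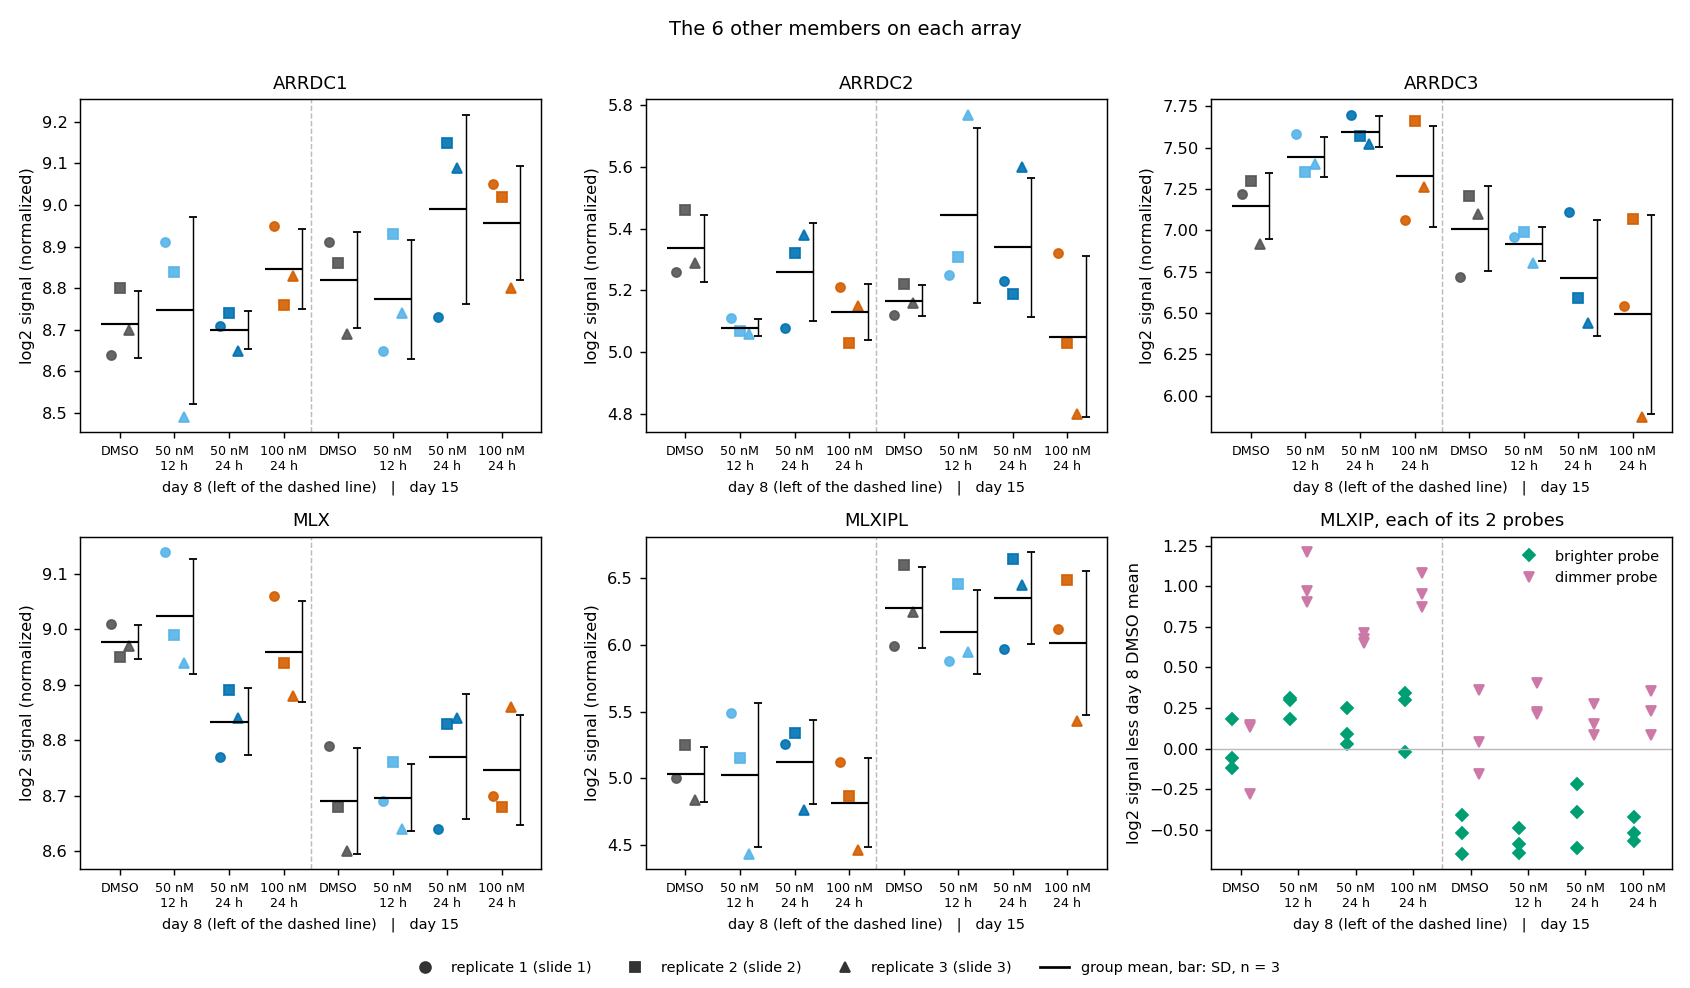
Normalized log2 signal of ARRDC1, ARRDC2, ARRDC3, MLX and MLXIPL on each array, drawn by group with the mean and SD (n = 3), and for MLXIP the log2 signal of each of its probes less that probe's mean in day 8 DMSO. Each panel has its own y axis. On day 8 the dimmer MLXIP probe lies above all DMSO samples in each of the 9 exposed samples, and MLXIPL is higher in the day 15 groups.

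Of the MLX partners, MLXIP was higher in all 3 exposed groups on day 8. Its log2 signals in DMSO were 8.98, 8.81 and 9.13. They were 9.60, 9.40 and 9.68 at 100 nM, 9.42, 9.33 and 9.38 at 50 nM for 24 h, and 9.58, 9.61 and 9.67 at 50 nM for 12 h, with no overlap with DMSO in any group. The log2 fold changes were 0.59 (SE 0.11, adjusted p = 0.0015), 0.40 (SE 0.11, adjusted p = 0.027) and 0.64 (SE 0.11, adjusted p = 0.0014) by limma. MLXIP was thus 1 of 6 members tested that rose, with 0 of 6 falling, against 4.07% of all genes called higher and 5.41% called lower at 100 nM, 3.66% and 4.36% at 50 nM for 24 h, and 2.66% and 2.85% at 50 nM for 12 h. MLXIP also had the 14th lowest r with TXNIP (-0.938).

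The rise rested on 1 of the 2 MLXIP probes. The dimmer probe went from 6.44, 6.02 and 6.43 in DMSO to 7.25, 7.17 and 7.38 at 100 nM, higher by 0.97 (SE 0.14) on the log2 scale with an adjusted p = 3.4e-04 over 48316 probes, with 0.68 and 1.03 at 50 nM for 24 h and 12 h. The brighter probe went from 11.53, 11.59 and 11.83 to 11.95, 11.63 and 11.99, with overlap, and was higher by 0.21 (SE 0.13) with an adjusted p = 0.53. Both probes match the same RefSeq accession, and with the brighter probe alone the gene was not called (adjusted p from 0.24 to 0.66 over the 3 comparisons). With slides 2 and 3 only, it was not called in any of the 3 (adjusted p from 0.15 to 0.43), with log2 fold changes of 0.57, 0.38 and 0.67. The value at 50 nM for 24 h was also lost without any of 5 arrays, namely DMSO replicates 1 and 2 (adjusted p = 0.071 and 0.14) and the 3 exposed arrays (adjusted p = 0.098, 0.053 and 0.074). On day 15 MLXIP changed by 0.08, 0.11 and 0.07 and was not called. The 100 nM change on day 15 less that on day 8 was -0.51 (adjusted p = 0.094).

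MLX, the common partner, was not called with rotenone, with log2 fold changes of -0.01, -0.14 and 0.05 on day 8 and 0.06, 0.08 and 0.01 on day 15. The 95% interval at 100 nM on day 8 ran from -0.19 to 0.16. MLXIPL was dim on day 8, where it was well above background on 3, 2, 3 and 1 of 3 arrays in DMSO, 50 nM for 12 h, 50 nM for 24 h and 100 nM. Its log2 fold change at 100 nM was -0.21 with an interval of -0.83 to 0.40.

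**Figure D4:**
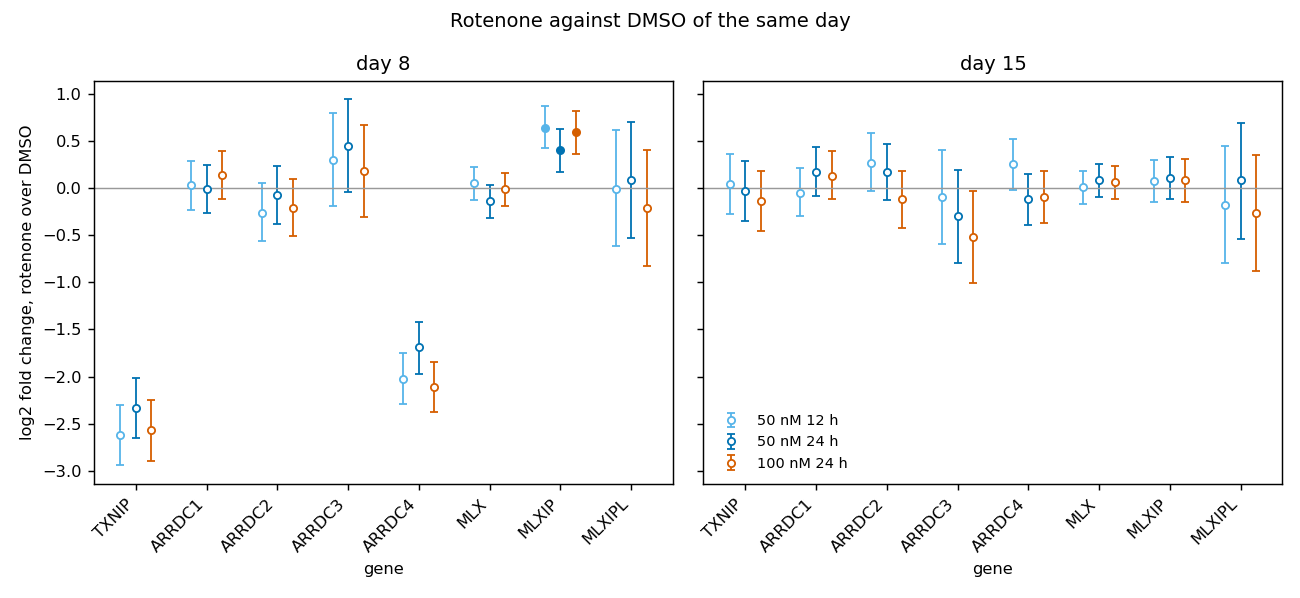
Log2 fold change of each member, rotenone over DMSO, on day 8 (left) and day 15 (right), with 95% confidence intervals from the limma fit and colors for exposure. Filled points were called at an adjusted p under 0.05, open points were not called or, for TXNIP and ARRDC4 on day 8, not tested. On day 8 these 2 genes lie at -1.69 or lower and MLXIP at 0.40 to 0.64, whereas on day 15 no point is filled.

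From day 8 to day 15 in DMSO, MLXIPL and MLX changed, and ARRDC1, ARRDC2, ARRDC3 and MLXIP were not called. MLXIPL rose from log2 signals between 4.84 and 5.25 on day 8 to 5.99, 6.60 and 6.25, without overlap, or 2.37-fold (log2 difference 1.25, SE 0.29, limma adjusted p = 0.004). Its size depended on background correction, from 0.63 with an offset of 50 to 1.95 with the scanner software's processed signal, and it was called under both. MLX fell from 9.01, 8.95 and 8.97 to 8.79, 8.68 and 8.60, a log2 difference of -0.29 (SE 0.08, adjusted p = 0.018). So 1 of 6 members rose and 1 fell, against 10.1% of all genes higher and 13.2% lower. Without day 15 DMSO replicate 1 the values were 1.39 (adjusted p = 0.006) and -0.34 (adjusted p = 0.016). With slides 2 and 3 only, neither was called (adjusted p = 0.07 and 0.11). The MLX call was also lost without day 8 replicate 1 (adjusted p = 0.061) or day 15 replicate 2 (0.051) or 3 (0.078). TXNIP and ARRDC4 changed by -0.22 and -0.20, given as a description. The brighter MLXIP probe fell by 0.52 on the log2 scale (adjusted p = 0.0078 over all probes) while the dimmer one changed by 0.08 (adjusted p = 0.81). The 2 MLX probes changed by -0.33 and -0.24, and neither was called over all probes (limma adjusted p = 0.15 and 0.19). All 5 cycling-cell markers fell over the same days, and the mean of their log2 signals ranged from 5.36 to 6.91 on day 8 arrays and from 4.16 to 4.75 on day 15 arrays. Of the 6 neuronal markers, MAPT and SNAP25 were called higher on day 15. Of the 5 dopaminergic markers, TH, NR4A2 and SLC6A3 were called, 1 higher and 2 lower. The log2 fold changes of these 5 ran from -2.94 to 1.57. The part of these markers in the changes of MLXIPL and MLX was not tested.

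Beyond the members, 69 further genes of the pathway were listed by role and tested. At 100 nM on day 8, 2 of 69 were higher (2.9%) and 3 lower (4.35%), against 4.07% and 5.41% of all genes. At 50 nM for 24 h, 2 were higher and 2 lower (2.9% each), against 3.66% and 4.36% of all genes. At 50 nM for 12 h, 4 were higher (5.8%) and 3 lower (4.35%), against 2.66% and 2.85%. The medians of the lists at 100 nM lay between -0.13 and 0.07, beside -0.02 over all genes.

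Among 14 other targets of MondoA or ChREBP, KLF10, a zinc-finger repressor that answers TGF-beta and glucose, was lower at 100 nM (log2 fold change -0.73, SE 0.16, adjusted p = 0.0054) and at 50 nM for 12 h (-0.67, adjusted p = 0.016). At 50 nM for 24 h it was at -0.50 (adjusted p = 0.062). The KLF10 call at 12 h was lost without DMSO replicate 2 (adjusted p = 0.069) or exposed replicate 1 (0.085). RGS16, which speeds the shut-off of G proteins, was higher at 50 nM for 12 h (0.48, adjusted p = 0.03), a call lost without 5 of the 6 arrays in turn (adjusted p up to 0.14). The median log2 fold change of the 14 genes was 0.07 at 100 nM, 0.19 at 50 nM for 24 h and -0.01 at 50 nM for 12 h, beside -0.02, -0.02 and -0.01 over all genes. The promoter of RGS16 held a pair with 2 mismatches.

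In the MYC, MAX and MXD network, whose proteins share E-boxes with MLX, 1 of 10 genes was called against DMSO on day 8. Of all genes, 5.41% were lower at 100 nM, and 4.36% and 2.85% at 50 nM for 24 h and 12 h. MXD4, a MAX partner that represses transcription, was lower in the 3 groups, with log2 fold changes of -0.62, -0.66 and -0.51 (SE 0.11 each, adjusted p = 0.0011, 8.2e-04 and 0.0088). Without DMSO replicate 2 the last was not called (adjusted p = 0.059).

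Among 9 NEDD4-family ligases, the partners through which alpha-arrestins have cargo ubiquitinated, HECW1 was lower in all 3 groups. Its mean log2 signal was 7.12 ± 0.19 (SD, n = 3) in DMSO, 6.37 ± 0.11 at 100 nM, 6.53 ± 0.09 at 50 nM for 24 h and 6.39 ± 0.17 at 50 nM for 12 h. The log2 fold changes were -0.75 (adjusted p = 8.9e-04), -0.60 (0.0067) and -0.73 (0.0019), with an SE of 0.13 each. On day 15 the 100 nM change was -0.01. The difference between the days, 0.74 (SE 0.18), passed the test by limma (adjusted p = 0.036), as did 2.44% of all genes, but not with the slide as a replicate block (adjusted p = 0.059). No member tested passed it.

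In the thioredoxin system, which TXNIP binds, 1 of 7 genes was called higher at 100 nM on day 8. At 50 nM it was 2 of 7 with 24 h and 1 of 7 with 12 h. Of all genes, 4.07% were higher at 100 nM, and 3.66% and 2.66% at 50 nM for 24 h and 12 h. None of the 7 was called lower, and their medians in the same order were 0.03, -0.15 and -0.06. TXNL1, a thioredoxin-like protein of the proteasome, changed by 0.33, 0.33 and 0.31 (SE 0.08 each, adjusted p = 0.01, 0.013 and 0.025). Each of these calls was lost without some of the 6 arrays in turn, the first 2 without 2 arrays and the last without 4, with adjusted p up to 0.1. TXN, thioredoxin itself, changed by 0.32 at 50 nM for 24 h (adjusted p = 0.049), a call lost without any of the 6 arrays (adjusted p from 0.06 to 0.16) and under the replicate block (0.065).

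Of 9 other arrestin-fold proteins, ARRB1, the beta-arrestin that quiets G protein-coupled receptors, was higher at 100 nM (0.57, SE 0.12, adjusted p = 0.004) and at 50 nM for 12 h (0.45, adjusted p = 0.03). The second call was lost without 4 of 6 arrays (adjusted p up to 0.16) and under the replicate block (0.051). At 50 nM for 24 h it was 0.27 higher (adjusted p = 0.2).

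None of 13 glucose transporter and hexokinase genes was called on day 8. The smallest p belonged to HK2, a hexokinase of the mitochondrial outer membrane, with 0.60, 0.76 and 0.66 (SE 0.28 each, adjusted p = 0.22, 0.11 and 0.22). Of 7 AMPK subunits, PRKAG2, a nucleotide-binding subunit, was higher at 50 nM for 12 h (0.36, SE 0.09, adjusted p = 0.027), a call lost without 4 of 6 arrays (adjusted p up to 0.11). PRKAB2 had 0.24 and 0.25 (adjusted p = 0.065 each) in the 24 h groups.

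**Figure D5:**
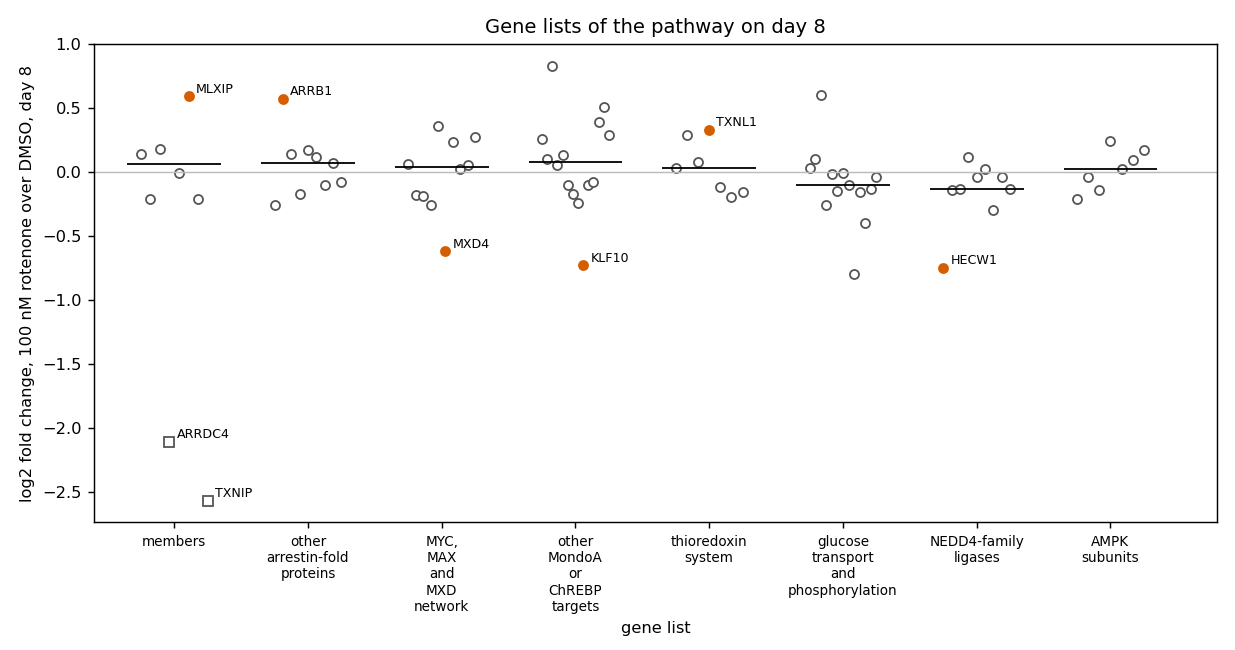
Log2 fold change at 100 nM against DMSO on day 8 for each measured gene of the members and of 7 lists of the pathway. Orange points were called at an adjusted p under 0.05 and are named, open circles were not called, open squares (TXNIP and ARRDC4) were not tested, and black lines are medians of the genes tested. TXNIP at -2.57 and ARRDC4 at -2.11 lie below every other gene shown, the lowest of which is at -0.80.

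On day 15, none of the 69 pathway genes was called after any exposure by limma. Between the DMSO groups, 7 of 69 were higher (10.1%) and 9 lower (13%) on day 15 than on day 8, close to the 10.1% and 13.2% of all genes. HK1, the main hexokinase of brain, rose by 0.75 (SE 0.11, adjusted p = 2.9e-05), while SLC2A1, the GLUT1 transporter, fell by 0.59 (SE 0.10, adjusted p = 1.4e-04). SLC2A8, an intracellular transporter, rose by 0.47 (adjusted p = 0.006). Of the ligases, NEDD4L rose by 0.67 (SE 0.08, adjusted p = 7.4e-06) and HECW2 fell by 0.77 (SE 0.12, adjusted p = 1.1e-04). The catalytic AMPK subunit PRKAA1 fell by 0.56 (adjusted p = 0.004), and NXN, a nuclear thioredoxin-like protein, by 0.59 (adjusted p = 0.0041). VPS26A, the retromer subunit with an arrestin fold, rose by 0.41 (adjusted p = 0.0038). These 8 calls held when each of the 6 arrays was left out in turn. Another 7 (MXD4, MYCN, MXD3, MYC, TXNRD3, SMURF2 and PRKAA2) were lost without 2 to 5 arrays.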

How the data were processed

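Scanner files deposited by the authors hold, per the file headers, the intensity of each spot and of its background (Agilent Feature Extraction 11.5.1.1, and 12.0.0.7 for slide 2), and a table of log2 values after their normexp background correction, quantile normalization, filter on dim spots and ComBat. Here the median intensity less the local background was corrected with normexp (offset 0), quantile normalized and batch corrected (a parametric ComBat, slide 1 against slides 2 and 3, with groups as covariates). Spots had to exceed 1.1 times the level under which 95% of the 308 negative control spots lay, on 3 or more arrays. Outlier values were left out, and spots were averaged by probe and probes by gene, matched by accession to RefSeq (30275 of 50599 probes). One limma 3.58.1 model (R 4.3.3) over 24 arrays gave two-sided p-values, Benjamini-Hochberg adjusted over 21239 genes, and a gene was called at an adjusted p under 0.05 at any fold. Precision is limited by having 3 arrays per group. The computations were tested on simulated data.

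The members and lists were chosen with earlier results of these data known. Named were the members and ARRDC5, of each list the genes called (at most 4 by smallest p) or the one with the smallest p, and the 8 genes with the highest and 4 with the lowest r with TXNIP. Replicate numbers are slide numbers. Before batch correction and after subtracting group means, the lowest correlation among the 84 same-slide pairs was 0.171. Arrays of a slide thus shared variation, and whether their samples were also paired in culture cannot be told. A fit with the slide as a block was an alternative. The other alternatives were the processed signal, an offset of 50, scaling to the 75th percentile, no batch correction, other filters, the brightest probe, the authors' log2 values, slides 2 and 3 only, the compared groups only, no subtraction of local background (chosen after seeing the data) and each array left out in turn. Promoters are from RefSeq on GRCh38.p14. Protein sequences were not used here. The values of 1 pathway gene called between the DMSO groups are not reported here.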

Additional observations from a re-analysis of the deposited data

Results flagged for a closer look

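HECW1, a NEDD4-family ligase, was picked up because its 100 nM change differed between the days by a test of the difference itself. The day 15 change less the day 8 change was 0.74 (SE 0.18, limma adjusted p = 0.036), with -0.75 on day 8 and -0.01 on day 15. When each of the 12 arrays concerned was left out in turn, the adjusted p ran from 0.019 to 0.099 and was above the threshold in 8 cases. With the slide as a replicate block it was 0.059.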

How the results depend on the processing

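No value compared changed sign for TXNIP or ARRDC4 on day 8. Over 12 alternatives TXNIP ran from -2.62 to -2.36 at 100 nM, from -2.36 to -2.21 at 50 nM for 24 h and from -2.64 to -2.52 at 50 nM for 12 h. ARRDC4, in the same order of groups, was at -2.46, -1.96 and -2.49 with the processed signal, -1.41, -1.19 and -1.36 with an offset of 50, and -1.92, -1.58 and -1.86 with slides 2 and 3 only.

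The counts below are of the 6 members tested and 69 pathway genes, and the cause of their shifts was not tested. At 100 nM on day 8 the count of 6 became 10 with the processed signal, 10 with an offset of 50, 3 without batch correction and 0 with slides 2 and 3 only, and 5 to 6 with an array left out. Over all genes, the 2014 called at 100 nM became 633 without batch correction and 194 with slides 2 and 3 only. At 50 nM for 24 h the count of 5 became 9 with the processed signal, 8 with scaling to the 75th percentile, 0 without batch correction, 0 with slides 2 and 3 only, 1 with the compared groups only, and 2 to 3 with an array left out. At 50 nM for 12 h the count of 8 became 1 without batch correction, 0 with slides 2 and 3 only, 0 with the compared groups only, and 3 to 7 with an array left out. Between 24 h and 12 h of 50 nM, 2 were called with the authors' values in place of 0. Between the DMSO groups the count of 18 became 8 without batch correction and 6 with slides 2 and 3 only, and was 13 to 16 with an array left out. For the difference between days the count of 1 became 2 with the processed signal, 2 with the brightest probe, 3 with the authors' values, 0 without batch correction, 0 with slides 2 and 3 only, 0 with the compared groups only, and 0 to 1 with an array left out. Under the replicate block the counts were 7, 5 and 7 on day 8, 19 between the DMSO groups and 0 for the difference between days.

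With the compared groups only, MLXIP was not called on day 8 (adjusted p = 0.059, 0.11 and 0.08), and MLX was not called between the DMSO groups (0.095). Without batch correction MLXIP at 50 nM for 24 h (0.18) and MLX (0.29) were not called, and the MLX call was also lost with the brightest probe (0.094). The processed signal moved the median of all genes to 0.10 at 100 nM on day 8 and to 0.15 between the DMSO groups, and scaling to the 75th percentile moved that of the difference between days to 0.14. Over all genes on day 15, 0 to 10 were called in any of the 3 comparisons under the 12 alternatives. MLXIPL on day 8 and ARRDC5 are limited by signal near background.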
